A study of Mus musculus with 6 samples.

Results

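The aryl hydrocarbon receptor (AHR) pathway was followed in cultured mouse hepatocytes through 7 genes, Ahr, Arnt, Ahrr, Tiparp, Cyp1a1, Cyp1a2 and Cyp1b1. They were picked by name for their place in the pathway out of the 25184 genes of the count table. Of the 7 genes, 5 passed the filter on low counts (a mean normalised count above 5) and were tested together with the other genes that passed, 15105 in all. Ahrr and Cyp1b1 did not pass and are given as counts only.

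AHR is a transcription factor that waits in the cytoplasm, held by heat shock protein 90 and further chaperones, until it binds a ligand such as a dioxin, a polycyclic aromatic hydrocarbon, an indole or a tryptophan metabolite. It then enters the nucleus, pairs with ARNT and binds DNA that carries the core letters GCGTG. In liver its best-known targets are the cytochrome P450 genes of the Cyp1 family, of which Cyp1a2 is also made without added ligand, mostly by the hepatocytes around the central vein. Ahrr and Tiparp are targets whose proteins act back on AHR and dampen it. ARNT is shared with other partners, above all the hypoxia-inducible factors (HIFs).

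The hepatocytes came from 3 mice labelled Sucnr1 fl/fl, the controls, and 3 labelled Hep-Sucnr1 KO and were kept in culture overnight before RNA was extracted. Mice of both genotypes ate chow and had both alleles of Sucnr1, which encodes the receptor for succinate, floxed, with loxP sites around exon 2. Hep-Sucnr1 KO mice carried in addition 1 copy of a Cre transgene under the promoter of the albumin gene (Alb-Cre +/-), and the controls carried no Cre. A Cre allele without floxed Sucnr1 was not among the groups, so Cre and the deletion cannot be told apart here. Age and sex of the 6 mice are not given in the sources used here, and the labels name no treatment with an AHR ligand. RNA was extracted on 2 days, with 1 library of each genotype on day 1 (Sucnr1 fl/fl replicate 1 and Hep-Sucnr1 KO replicate 3) and 2 of each on day 2. The question was whether hepatocytes without Sucnr1 differ in gene expression. Below, single values of the control libraries are those of replicates 1, 2 and 3, in this order, and those of the KO libraries are replicates 3, 4 and 5.

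Poly(A) RNA gave between 30504248 and 38770694 counts per library. Sucnr1 itself stood at 4.55 ± 1.87 CPM (counts relative to the TMM-scaled size of the library; SD, n = 3) in the controls and at 1.21 ± 1.297 CPM in the KO libraries, without overlap (3.395 to 6.71 against 0.152 to 2.66 CPM), and edgeR's quasi-likelihood test gave it an unadjusted p of 0.00444 and a Benjamini-Hochberg adjusted p of 0.998. Among the KO libraries Sucnr1 stood at 2.66, 0.827 and 0.152 CPM, highest in replicate 3, the only KO library of day 1. The counts are summed over all exons of the gene, and counts per exon were not analysed here. Across all 15105 genes, 0 passed an adjusted p of 0.05 for genotype with edgeR, 563 had an unadjusted p below 0.05, and DESeq2 called 13 (0.0861%). The 6 hepatocyte markers summed to 50140 to 83020 CPM in the 6 libraries. The 7 Kupffer cell markers summed to 24.0 to 86.9 CPM in the controls and 4.49 to 75.4 CPM in the KO libraries, with the lowest value in Hep-Sucnr1 KO replicate 3, and the 7 sinusoidal endothelial markers to 51.3 to 87.0 and 30.5 to 59.8 CPM. None of the markers of these 2 cell types stayed at 3 counts or fewer in all libraries. Stellate cell and fibroblast markers (8 genes, of which Hand2 never exceeded 1 count) summed to 4.75 to 21.04 and 3.43 to 7.86 CPM, blood cell markers (6 genes) to 2.11 to 13.9 and 1.96 to 11.4 CPM, and the 5 cholangiocyte markers, led by Spp1, to 350.0 to 511.5 and 425.7 to 650.2 CPM. Spp1 (mean 335.4 CPM in controls and 398.6 CPM in KO libraries) and Sox9 (103.7 and 107.8 CPM) made up nearly all of the cholangiocyte sum. The other markers of that list were low, with Epcam at 1.63 and 1.72, Krt19 at 0.576 and 0.439 and Krt7 at 0.193 and 0.0514 CPM. The part of other cell types in the results below was not tested. In bulk RNA, fewer cells that express a gene and less RNA per cell cannot be told apart.

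Cyp1a1 and Cyp1a2 are neighbours on chromosome 9 and Ahrr holds the most copies of the AHR core among the members matched, so the promoters of these 3 genes are shown first. Each run covers 250 bases before and 50 after the start of the gene's RefSeq transcript in GRCm38, 5′ to 3′ on the gene's strand. Capitals mark the AHR core GCGTG and the TATA box letters TATAAA. The windows are chr9:57697363-57697662 (plus strand) for Cyp1a1, chr9:57683606-57683905 (minus strand) for Cyp1a2 and chr13:74292282-74292581 (minus strand) for Ahrr.
Cyp1a1: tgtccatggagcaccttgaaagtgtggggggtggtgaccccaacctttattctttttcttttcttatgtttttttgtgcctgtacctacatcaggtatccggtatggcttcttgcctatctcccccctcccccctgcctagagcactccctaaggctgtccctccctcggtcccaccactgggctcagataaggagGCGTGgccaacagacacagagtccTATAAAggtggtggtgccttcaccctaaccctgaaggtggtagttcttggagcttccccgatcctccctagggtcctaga
Cyp1a2: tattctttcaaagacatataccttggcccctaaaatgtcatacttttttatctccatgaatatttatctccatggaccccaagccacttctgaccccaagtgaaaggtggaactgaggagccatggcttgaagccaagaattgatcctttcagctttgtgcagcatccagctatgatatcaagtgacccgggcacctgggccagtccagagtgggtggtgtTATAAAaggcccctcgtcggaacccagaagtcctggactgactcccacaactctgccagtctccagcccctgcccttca
Ahrr: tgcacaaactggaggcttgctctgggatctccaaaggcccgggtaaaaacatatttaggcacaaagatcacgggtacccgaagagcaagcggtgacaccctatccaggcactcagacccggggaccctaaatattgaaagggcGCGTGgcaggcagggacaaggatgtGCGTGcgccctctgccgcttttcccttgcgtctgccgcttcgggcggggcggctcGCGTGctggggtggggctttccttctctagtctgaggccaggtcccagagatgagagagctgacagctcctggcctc

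In these windows Cyp1a1 carried the core once, 54 bases before its start, and Cyp1a2 did not carry it on either strand. Both genes had TATAAA, 30 and 29 bases before the start. Ahrr carried the core 3 times, 107, 82 and 27 bases before the start, and 1 of these copies also matched the longer form TNGCGTG. Of the other members matched in the promoter table, Arnt had 1 copy, 29 bases before the start, and Cyp1b1 and Tiparp had 1 copy each on the opposite strand (CACGC), 76 and 170 bases before it. Among 32851 promoters of the same length, 32.4% held GCGTG on one strand or the other, 3.91% held it at least 3 times, 5.07% held TNGCGTG, which overlaps GCGTG, and 13.6% held TATAAA. Among the 13402 promoters of tested genes the shares were 48.3% for GCGTG, 7.65% for TNGCGTG and 8.27% for TATAAA. A match of letters does not show a bound site. The best-studied AHR elements of Cyp1a1 lie further upstream than this window. The promoter of Ahr was not used here.

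Ahr (ENSMUSG00000019256, GRCm38 chr12:35497974-35535038, minus strand) encodes the receptor. It had 1722, 1353 and 645 counts in the control libraries, which is 44.8, 40.7 and 21.3 CPM. In the KO libraries it had 1176, 1484 and 689 counts, or 37.2, 43.8 and 20.9 CPM. The 6 libraries thus fell apart into 4 between 37.2 and 44.8 CPM and 2 lower ones, Sucnr1 fl/fl replicate 3 and Hep-Sucnr1 KO replicate 5, 1 of each genotype and both from day 2. The genotypes averaged 35.6 ± 12.6 and 33.98 ± 11.8 CPM (SD, n = 3), and the 2 sets of values overlapped almost wholly. The log2 fold change, KO against control throughout, was −0.05 (SE 0.33, 95% interval −0.83 to 0.74), with an adjusted p of 0.998 in edgeR's quasi-likelihood test. That interval spans 0.562 to 1.66 times the control level, so a moderate change in either direction was not detectable with 3 mice per genotype. Ahr varied more between mice than most genes of its abundance: the SD of its log2 CPM over the 6 libraries was 0.512, against a median of 0.157 over 1867 genes of like level, which put it at percentile 97.2. Its exons share 127 bases with Gm48236 on the opposite strand, which had 6 counts in all, and the counting used strand.

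Arnt (ENSMUSG00000015522, chr3:95434388-95497240, plus strand) encodes the partner that AHR needs to bind DNA. Its counts were 2455, 1621 and 1316 in the controls (63.8, 48.7 and 43.4 CPM) and 1640, 1769 and 1558 in the KO libraries (51.9, 52.2 and 47.3 CPM). All 3 Hep-Sucnr1 KO values lay inside the range of the controls. Arnt was the steadiest tested member, with an SD of 0.188 on the log2 scale against a median of 0.156 for 1447 genes of like level (percentile 61.6). Its log2 fold change was −0.03 (SE 0.13, 95% interval −0.33 to 0.28; edgeR's adjusted p = 0.998), the narrowest interval among the members.

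Tiparp (ENSMUSG00000034640, chr3:65528410-65555518, plus strand) encodes a mono-ADP-ribosyltransferase that modifies AHR and lowers its activity. The gene gave 5117, 2152 and 2929 counts in the controls, or 133.1, 64.7 and 96.5 CPM, and 2390, 2829 and 3338 counts in the KO libraries, or 75.6, 83.5 and 101.3 CPM. The controls held both the highest and the lowest value, and the Hep-Sucnr1 KO libraries sat between them. The genotypes averaged 98.1 ± 34.2 and 86.8 ± 13.2 CPM, with a log2 fold change of −0.14 (SE 0.25, 95% interval −0.74 to 0.46) and an adjusted p of 0.998 with edgeR. Within day 1 the difference of log2 CPM, Hep-Sucnr1 KO minus Sucnr1 fl/fl, was −0.81 from 1 library of each genotype, and within day 2 it was 0.22 from 2 of each. The test of this difference between the days in edgeR gave an interaction of 1.01 (SE 0.40) with an unadjusted p of 0.0450 and an adjusted p of 1.00. Across all genes 3.69% had an interaction with an unadjusted p below 0.05 and 0% passed adjustment, and on day 1 the value rests on single libraries. Tiparp lies 5.44 Mb from Sucnr1 on the same chromosome. It shares 223 exon bases with 4931440P22Rik on the opposite strand, which had 140 counts in all.

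Ahrr (ENSMUSG00000021575, chr13:74211118-74292331, minus strand) encodes the AHR repressor, which competes with AHR for ARNT. It was all but absent, with 0, 1 and 0 counts in the controls and 2, 1 and 0 counts in the KO libraries. The 4 counts in all come to 0.0199 CPM over the 6 libraries. No library exceeded the 3 counts that a count of 0 allows, which are 0.0780 to 0.0989 CPM depending on the library, so a difference between genotypes was not detectable at this depth. Intervals and limits of this kind cover counting error only.

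Cyp1a1 (ENSMUSG00000032315, chr9:57687928-57703824, plus strand) encodes the P450 enzyme that most strongly follows AHR ligands in many tissues. In these cells it was scarce, with 8, 9 and 21 counts in the controls and 15, 27 and 9 counts in the KO libraries. The exact Poisson 95% intervals of the lowest and highest count, 3.45 to 15.8 and 17.8 to 39.3, did not overlap, and each genotype held a library near either end. These counts were picked as the extremes and are not scaled for depth, so the gap is no test of variation between libraries. The genotypes stood at 0.390 ± 0.263 and 0.515 ± 0.264 CPM (SD, n = 3). The log2 fold change was 0.47 (SE 0.58, 95% interval −0.92 to 1.86; adjusted p = 0.998, edgeR), and 1.38 times the control level thus came with bounds of 0.528 and 3.62.

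Cyp1a2 (ENSMUSG00000032310, chr9:57676937-57683703, minus strand) encodes the liver's constitutive member of the family, which metabolises caffeine and many drugs. It had 6528, 7527 and 5256 counts in the controls, or 169.7, 226.3 and 173.2 CPM. The KO libraries held the highest and the lowest value of all, with 7704, 15632 and 3338 counts, or 243.8, 461.5 and 101.3 CPM. Highest and lowest differed 4.56 times among Hep-Sucnr1 KO and 1.33 times among Sucnr1 fl/fl libraries. The averages were 268.9 ± 181.4 and 189.8 ± 31.7 CPM, with a log2 fold change of 0.50 (SE 0.48, 95% interval −0.65 to 1.65) and an adjusted p of 0.998 by edgeR's quasi-likelihood test. On the scale of fold changes this is 1.42 times, with bounds of 0.639 and 3.15. A single library set the direction: without Hep-Sucnr1 KO replicate 4 the log2 fold change was −0.31 (unadjusted p = 0.431, edgeR), and without replicate 5 it was 0.92 (unadjusted p = 0.00363, adjusted p = 0.666). Cyp1a2 also varied more than most genes of its abundance, with an SD of log2 CPM of 0.724 against a median of 0.180 over 382 genes (percentile 97.4).

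Cyp1b1 (ENSMUSG00000024087, chr17:79701537-79715061, minus strand) encodes the family member that is found mostly outside hepatocytes. It had 0, 2 and 0 counts in the controls and 0, 2 and 2 counts in the KO libraries. With 6 counts in all, 0.0299 CPM, it too stayed below 3 counts in every library and allowed no comparison.

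**Figure D1:**
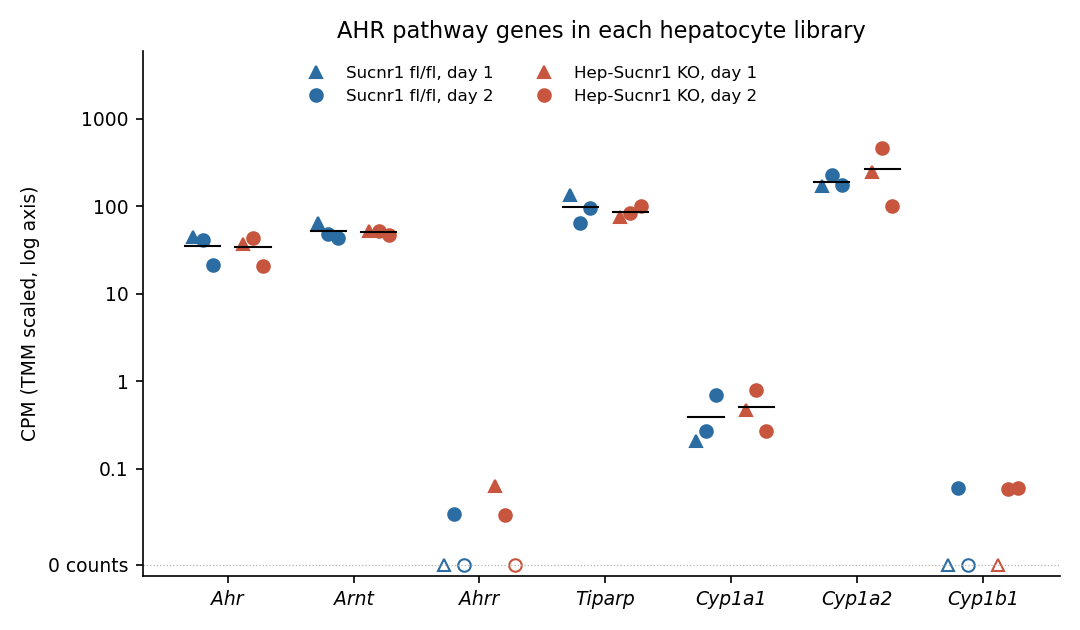
Level of each AHR pathway gene in CPM (log axis) in the 3 Sucnr1 fl/fl (blue) and 3 Hep-Sucnr1 KO libraries (red). Triangles are extraction day 1, circles day 2, open symbols 0 counts and black lines the mean of 3 libraries, which is left out for genes with a library at 0. Cyp1a2 ranges from 101.3 to 461.5 CPM and Ahrr and Cyp1b1 lie below 0.0989 CPM throughout.

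Of the 5 tested members, 0 passed an adjusted p of 0.05 and 0 had an unadjusted p below 0.05 for genotype in edgeR, where the corresponding shares of all 15105 genes were 0% and 3.73% (1.91% higher and 1.81% lower in Hep-Sucnr1 KO). DESeq2 called 0 of the members, but it gave an adjusted p only to Arnt, Cyp1a2 and Tiparp. Ahr and Cyp1a1 had none, with unadjusted p values of 0.839 and 0.531 in DESeq2's Wald test. The share that DESeq2 called, 0.0861% of all 15105 genes, likewise counts genes without an adjusted p as not called. The genotypes overlapped for each of the 5 members, whereas they did not overlap for 10.6% of all genes. In 2 of the 5 the log2 fold change was above 0, against 50.5% of all genes. Two-sided exact permutation tests of the CPM, which cannot give a p below 0.1 with 3 against 3 libraries, gave 0.7 for Ahr, 0.9 for Arnt, 0.7 for Tiparp, 0.5 for Cyp1a1 and 0.6 for Cyp1a2. Extraction day was tested in the same fit: the log2 fold change of day 2 against day 1 was −0.37 for Ahr, −0.27 for Arnt, −0.25 for Tiparp, 0.63 for Cyp1a1 and 0.22 for Cyp1a2. None of these 5 reached an unadjusted p of 0.05 in edgeR, the lowest being 0.0857 for Arnt, and across all genes 7.49% did. Within day 1 and within day 2 the difference of log2 CPM between the genotypes was −0.27 and 0.04 for Ahr, −0.30 and 0.11 for Arnt, 1.00 and 0.10 for Cyp1a1, and 0.52 and 0.13 for Cyp1a2. The day 2 KO libraries of Cyp1a2 lay far apart (461.5 and 101.3 CPM). For this gene edgeR's fit to the day 2 libraries alone gave 0.48 (SE 0.65), and its fitted interaction with day was −0.03 (SE 1.10). Besides Tiparp, no tested member had an interaction with an unadjusted p below 0.05 in edgeR, the lowest being 0.154 for Arnt. The library indexes fall into 2 series by number, 1 with Sucnr1 fl/fl replicates 1 and 2 and 1 with the remaining 4 libraries. With the index series as a further term the fold change of Ahr became 0.62, of Arnt 0.15 and of Cyp1a1 −0.34 on the log2 scale. These 3 directions are the opposite of those without the term. The series of Sucnr1 fl/fl replicates 1 and 2 holds no KO library, so this genotype term rests on replicate 3 as its only control. That library was the lowest control in Ahr and Arnt and the highest in Cyp1a1.

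**Figure D2:**
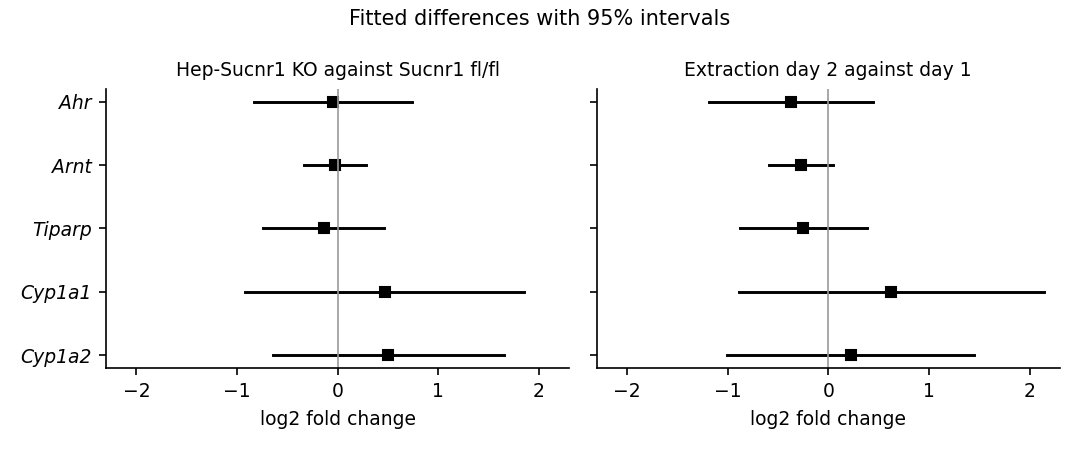
Log2 fold change of the 5 tested members for genotype (left) and extraction day (right) from the same edgeR fit, with 95% intervals as lines. Every interval includes 0. The intervals of Arnt are the narrowest, and those of Cyp1a1 and Cyp1a2 reach up to 1.86 and 1.65 for genotype.

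Levels of different genes were compared as CPM per kilobase of annotated exon, averaged over the 6 libraries. Cyp1a2 stood highest at 113.9 ± 61.7 (SD, n = 6), rank 402 of 15095 genes with a length. It was followed by Tiparp with 21.2 ± 5.50, Arnt with 6.40 ± 0.872 and Ahr with 5.64 ± 1.77 CPM per kilobase. Cyp1a1 came far behind with 0.162 ± 0.0881, at rank 13236, and Cyp1b1 (0.00513) and Ahrr (0.00217) at the limit of detection. The ranges of neighbours in this order did not overlap between Cyp1a2, Tiparp and Arnt, nor between Ahr and Cyp1a1. Arnt (5.42 to 7.97) and Ahr (3.39 to 7.27) did overlap. Among all genes with a length Cyp1a2 stood at percentile 97.3 and Cyp1a1 at percentile 12.3.

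Cyp1a2 and Cyp1a1 are transcribed away from each other, and the starts of their RefSeq transcripts lie 14.0 kb apart. Per base of exon Cyp1a2 exceeded Cyp1a1 by 347 to 1160 times in single libraries and 715 times over all counts. Because the genes are close paralogs, their transcripts were searched for shared stretches: the longest identical one has 137 bases and lies in coding sequence of exon 2 in both genes, at chr9:57700283-57700419 (plus strand) in Cyp1a1 and chr9:57682210-57682346 (minus strand) in Cyp1a2. It is shown in capitals with 15 flanking bases in lower case, since read pairs that fall inside it cannot be assigned to 1 of the genes.
Cyp1a1: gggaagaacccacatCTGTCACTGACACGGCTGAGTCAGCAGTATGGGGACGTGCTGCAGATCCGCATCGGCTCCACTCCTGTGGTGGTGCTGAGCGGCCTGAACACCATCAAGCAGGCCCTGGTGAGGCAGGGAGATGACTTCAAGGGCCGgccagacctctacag
Cyp1a2: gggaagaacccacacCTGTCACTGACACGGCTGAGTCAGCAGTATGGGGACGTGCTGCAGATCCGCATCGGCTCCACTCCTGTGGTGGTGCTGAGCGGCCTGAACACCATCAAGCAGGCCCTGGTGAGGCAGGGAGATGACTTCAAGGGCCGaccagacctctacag

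Of the 50-base words of the Cyp1a1 transcript, 3.55% also occur in Cyp1a2, and of the 100-base words 1.46%. The longest stretch shared with Cyp1b1 was 13 bases for both. The treatment of multiply matching pairs in the counting is not given in the sources used here, and the share of Cyp1a1 counts that came from Cyp1a2 was not tested. The ratio of their counts was not constant, with 816, 836 and 250 in the controls and 514, 579 and 371 in the KO libraries.

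Genes around the members were read from lists of the pathway. Of 13 genes of the AHR complex (chaperones and coactivators) all were tested, 4 had a higher and 9 a lower fitted level in Hep-Sucnr1 KO, 0 passed an adjusted p of 0.05 and 0 an unadjusted p of 0.05 in edgeR, and the median log2 fold change was −0.12, against 0.00296 over all genes. Among those with the lowest p were the coactivators Ncoa2 (42.4 ± 5.21 CPM in controls and 35.6 ± 3.999 CPM in KO libraries, SD, n = 3), Crebbp (29.1 ± 3.85 and 24.7 ± 2.54 CPM) and Ep300 (38.7 ± 5.24 and 32.9 ± 5.47 CPM), and the genotypes overlapped for all 3 of them.

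Of 17 further targets of AHR listed, 14 were tested, 7 had a higher and 7 a lower fitted level in Hep-Sucnr1 KO, and 0 passed in edgeR with or without adjustment (median log2 fold change −0.00395). Some had few counts in every library. Aldh3a1, an aldehyde dehydrogenase and classical target, had 1, 1 and 0 counts in the controls and 0 counts in all 3 KO libraries, and the flavin monooxygenase Fmo2 0.423 ± 0.166 and 0.222 ± 0.0566 CPM. Nqo1, a quinone reductase that NRF2 also drives, had between 130 and 188 counts in each library (4.77 ± 0.485 and 4.84 ± 1.06 CPM). Pmm1 (4.81 ± 0.871 and 3.92 ± 1.57 CPM), Xdh, the xanthine dehydrogenase (167.3 ± 28.6 and 198.2 ± 35.4 CPM), and Htatip2 (15.3 ± 3.31 and 18.0 ± 1.62 CPM) were the others with the lowest p. Aldh3a1 and Nqo1 were chosen after their values were seen.

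Among the 9 listed partners of ARNT, Epas1 (HIF2A) and Hif1a were the 2 that passed the filter. Epas1 had 222.6, 157.5 and 145.9 CPM in the controls and 132.1, 148.1 and 112.1 CPM in the KO libraries, with a log2 fold change of −0.40 (SE 0.17) and an unadjusted p of 0.0512 in edgeR. Hif1a had a log2 fold change of −0.10 (SE 0.22). The targets of HIF (12 of 13 tested) included 5 with higher and 7 with lower fitted levels and 0 past either threshold for genotype (median −0.0083), with Adm, Pfkfb3, Vegfa and Pdk1 lowest in p. Their summed level ranged from 2741 to 6208 CPM in the controls and from 3994 to 5679 CPM in the KO libraries.

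The kynurenine pathway, which turns tryptophan into AHR ligands and their precursors, had 10 of 11 listed genes tested, of which 9 had a higher and 1 a lower fitted level in Hep-Sucnr1 KO and 0 passed either threshold in edgeR (median log2 fold change 0.14). The 1 lower gene was Tdo2, the liver's first enzyme of the pathway, with 415.2, 422.6 and 454.9 CPM in the controls and 336.6, 400.5 and 311.8 CPM in the KO libraries (log2 fold change −0.30, SE 0.14, unadjusted p = 0.0721, edgeR). Kmo, Haao and Kyat3, later enzymes, had log2 fold changes of 0.21 (SE 0.13), 0.22 (SE 0.14) and 0.22 (SE 0.16). The genotypes did not overlap for Tdo2, lower in Hep-Sucnr1 KO, nor for Kmo (145.8 to 178.8 against 185.6 to 199.3 CPM) and Haao (201.6 to 256.7 against 262.7 to 280.2 CPM), both higher, as for 10.6% of all genes. Ido1, the inducible counterpart of Tdo2 and named after its counts were seen, was at 0 in the controls and had 2, 1 and 0 counts in the KO libraries. Genes of P450 electron transfer and of heme handling (7 genes, among them Hmox1, which breaks heme down) had 5 higher and 2 lower fitted levels and 0 past either threshold (median 0.07), with log2 fold changes of 0.26 for Cyb5b, 0.23 for Alas1, −0.16 for Por, the P450 reductase, and 0.11 for Cyb5a.

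**Figure D3:**
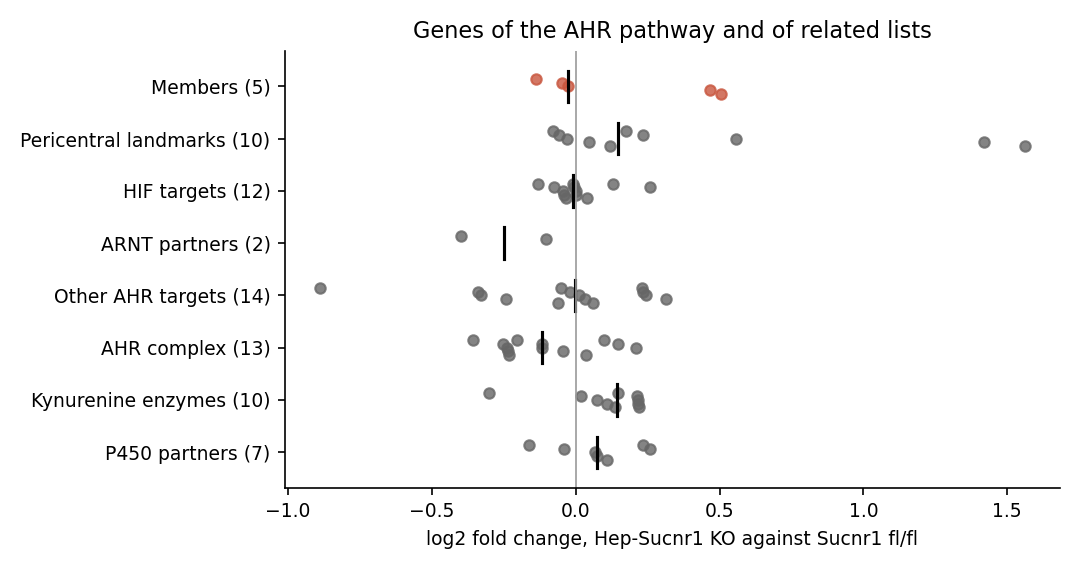
Log2 fold change between the genotypes (KO against control) for the 5 tested members (red) and the tested genes of 7 related lists (grey), 1 point per gene, with the number of genes in brackets and the median as a black line. Medians lie between −0.25 and 0.15, and single genes beyond 1 are Rhbg and Slc1a2 among the pericentral landmarks.

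Because Cyp1a2 is a gene of the pericentral hepatocytes, its level was set beside 10 other pericentral landmarks (among them Glul, Cyp2e1, Oat, Lgr5 and Axin2). Their score, the mean deviation of log2 CPM from the 6 libraries, was −0.14, 0.16 and −0.35 in the controls and 0.07, 1.02 and −0.77 in the KO libraries. The library highest in Cyp1a2 was thus also highest in the landmarks and the library lowest in Cyp1a2 also lowest. Over the 6 libraries Pearson's r was 0.984 (exact permutation p = 0.0111, 0.111 after Benjamini-Hochberg adjustment over the 20 relations computed) and Spearman's rho 0.886 (exact permutation p = 0.0333, adjusted 0.222). Without Hep-Sucnr1 KO replicates 4 and 5, the 2 farthest in the landmarks, r was 0.854. Neither statistic passed adjustment. Within the landmarks, 7 of 10 had a higher fitted level in Hep-Sucnr1 KO, 1 with an unadjusted p below 0.05 and 0 with an adjusted p below it in edgeR (median 0.15). That 1 was Rhbg, an ammonium transporter with 8 to 44 counts (log2 fold change 1.42, SE 0.43, unadjusted p = 0.0134), followed by the glutamate transporter Slc1a2 (1.56, SE 0.67), Oat (0.56, SE 0.52) and Cyp2e1 (0.23, SE 0.52). For these last 3 genes Hep-Sucnr1 KO replicate 4 was the highest library by far. Slc1a2 had 7.94, 37.6 and 4.83 CPM in the KO libraries against 3.74 to 7.45 CPM in the controls. Oat had 91.7, 354.2 and 80.5 CPM against 98.5 to 135.6 CPM, so that the other 2 KO libraries lay below every control. Cyp2e1 had 1383, 3429 and 684 CPM against 1168 to 2077 CPM.

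Ahr was set beside the same landmarks. Its 2 low libraries, Sucnr1 fl/fl replicate 3 and Hep-Sucnr1 KO replicate 5, were the 2 with the lowest landmark scores, while among the other 4 Ahr stayed between 37.2 and 44.8 CPM although the landmark score ran from −0.14 to 1.02. With the Ahr values in 2 separate clusters, no correlation of Ahr with the landmarks over all libraries is given. Between Cyp1a1 and the landmarks r was 0.512 (exact permutation p = 0.331) and rho 0.257 (exact permutation p = 0.658), and r turned to −0.487 without Hep-Sucnr1 KO replicates 4 and 5. Whether the r of Cyp1a2 and Cyp1a1 differ was not tested.

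Tiparp was also set beside the HIF targets. The HIF score was 0.36, −0.64 and 0.23 in the controls and 0.03, −0.22 and 0.24 in the KO libraries, and the library with the highest and that with the lowest Tiparp level, Sucnr1 fl/fl replicates 1 and 2, were also the extremes of this score. Pearson's r was 0.864 (exact permutation p = 0.00833, adjusted over 20 relations 0.111) and Spearman's rho 0.943 (exact permutation p = 0.0167, adjusted 0.222), and r was 0.972 without Sucnr1 fl/fl replicate 2 and Hep-Sucnr1 KO replicate 4. These too missed the threshold after adjustment. Between Tiparp and Cyp1a2 r was −0.463 (exact permutation p = 0.342) and rho −0.714 (exact permutation p = 0.136), a negative sign for a pair of AHR targets, with neither p below 0.05. For the remaining relations among members and scores, Arnt with the landmarks and with the HIF score included, adjusted p values were at least 0.204. Day 1 holds 2 libraries and day 2 holds 4, too few for a correlation within a day.

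**Figure D4:**
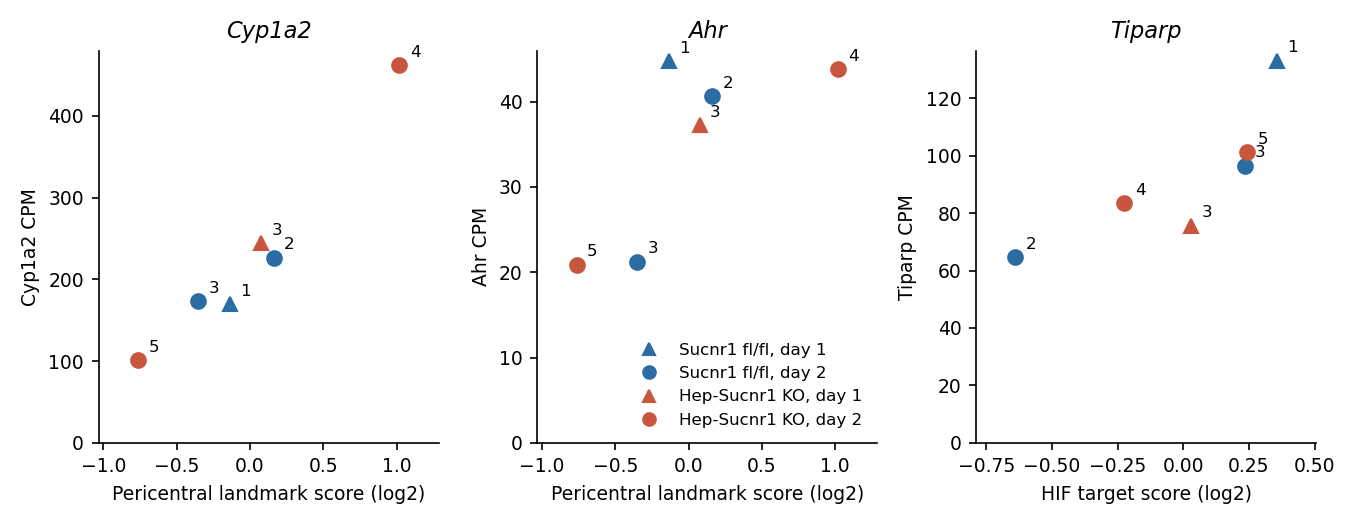
Level of Cyp1a2 and Ahr (CPM) against the pericentral landmark score, and of Tiparp against the HIF target score, in the 6 libraries, numbered by replicate within genotype. Cyp1a2 climbs from 101.3 to 461.5 CPM as the landmark score goes from −0.77 to 1.02, Ahr forms a low pair and a group of 4, and Tiparp spans 64.7 to 133.1 CPM between the ends of the HIF score.

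**Figure D5:**
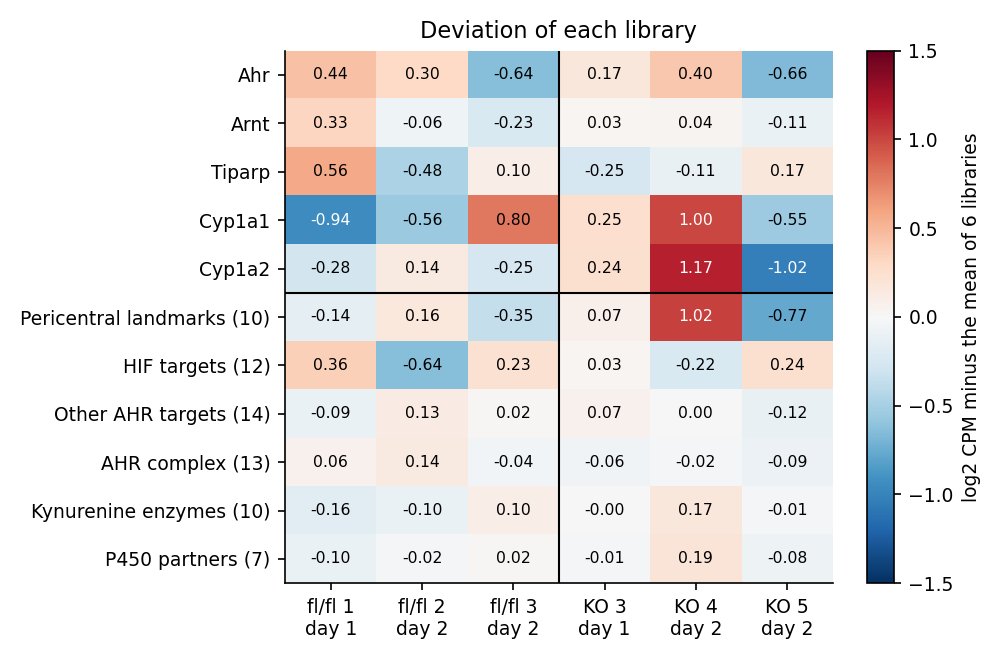
Log2 CPM of the 5 tested members in each library, minus the mean of the 6 libraries, above the mean of the same deviation over 6 related lists. Hep-Sucnr1 KO replicates 4 and 5 stand at opposite ends for Cyp1a2 (1.17 and −1.02) and for the pericentral landmarks, while the list means of the AHR complex and of other AHR targets stay within 0.14 of 0.

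The genes whose log2 CPM ran most like a member's over the 6 libraries were taken from 11714 genes with a mean of at least 1 CPM, as a description. For Ahr they were Nr1i2 (r = 0.9902), Pik3r1 (0.9857) and Nr1h4 (0.9851). Nr1i2 and Nr1h4 encode the nuclear receptors PXR and FXR, and they too were lower in the 2 libraries with low Ahr, though over a much smaller range (29.4 to 35.4 and 30.8 to 35.4 CPM). Without those 2 libraries r fell to 0.676, 0.840 and 0.802. For Cyp1a2 they were Cpt2, the inner carnitine palmitoyltransferase of mitochondria (0.9971), Gm45053 (0.9953) and Zfand5 (0.9920), and r without Hep-Sucnr1 KO replicates 4 and 5 was 0.991, 0.944 and 0.985. For Tiparp they were Lemd3 (0.9906), Chic1 (0.9892) and Arhgap29 (0.9879), and r without Sucnr1 fl/fl replicates 1 and 2 was 0.97, 0.957 and 0.96. Arnt was most like Zfp707 (0.9843), Fam214a (0.9754) and Sel1l (0.9732). Without Sucnr1 fl/fl replicates 1 and 3 these became 0.888, 0.973 and 0.682. Cyp1a1, with its few counts, was most like Ceacam2 (0.9842), Rap1a (0.9709) and Arl6ip1 (0.9703). Without Hep-Sucnr1 KO replicate 4 and Sucnr1 fl/fl replicate 3 its r was 0.95, 0.883 and 0.912. No member was among the genes most like another member. These genes were the best of 11714 searched over 6 libraries, so no p is given.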

How the data were processed

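Primary hepatocytes of 6 mice, 3 per genotype, were profiled by stranded mRNA sequencing, and the mice were taken as separate replicates as the series' design text states. The authors trimmed the reads (Trim Galore 0.6.7), aligned them to GRCm38 (STAR 2.7.10a), counted read pairs per gene (featureCounts) and deposited these raw counts, not normalised, in 1 table. Of its 25184 gene identifiers, 25130 had a symbol in the GENCODE M21 annotation of GRCm38 or the name table used here.

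Counts were scaled with TMM factors and tested in edgeR 4.0.16 (R 4.3.3) by quasi-likelihood F tests, with extraction day as a covariate of genotype, on genes with a mean DESeq2-normalised count above 5, with Benjamini-Hochberg adjustment over all 15105 genes and a threshold of 0.05. The interaction of genotype and day was tested in a further fit. A prior count of 2 was added for log2 CPM. DESeq2 1.42.0 was an alternative. The tests were also tested on simulated data. Single values were compared by exact permutation over libraries (SciPy 1.17.1), and correlations, planned as descriptions, were given permutation p values as well. Limits for counts of 0 are 3 counts. At this depth 1 CPM is more than 30 counts, so counting limited only Ahrr, Cyp1b1 and Cyp1a1. Promoters are from RefSeq (GRCm38.p6), where 6 of 7 members were matched, and exons from GENCODE.

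The members and gene lists were chosen with earlier results of these data known. The rule named the 7 members, Sucnr1, up to 4 genes of the lowest p per list, and the 3 genes most correlated with each member. One gene that the rule named is not reported here. The alternatives are DESeq2's test or size factors, library size alone, no filter or edgeR's own filter, no covariate, the index series as a further term, day 2 alone, a robust fit, other transcript lengths and each library left out. Raw reads were not analysed.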

Additional observations from a re-analysis of the deposited data

How the results depend on the processing

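No member passed an adjusted p of 0.05 for genotype, day or interaction under any of the alternatives run, and of 271 recomputed values 246 stayed on their side, 18 reversed and 7 moved. For genotype the lowest adjusted p over the alternatives was 0.963 for Ahr, 0.986 for Arnt, 0.928 for Cyp1a1, 0.666 for Cyp1a2 and 0.949 for Tiparp. The values of Ahr and Cyp1a1 leave out DESeq2's test, which gave them no adjusted p. Across all genes DESeq2 called 13 for genotype and 227 for day, the latter with 2 genes of the lists, against 0 with edgeR. Without the filter on low counts edgeR called 122 genes for day and 1 of the lists, and with single libraries left out 0 to 29, the 29 without Sucnr1 fl/fl replicate 2. With the index series as a further term the log2 fold change for genotype became 0.615 for Ahr, 0.152 for Arnt and −0.342 for Cyp1a1. In that fit Sucnr1 fl/fl replicate 3 is the only control that the KO libraries are set against. With the day 2 libraries alone the genotype log2 fold change became 0.0488 for Ahr, 0.101 for Arnt and 0.191 for Tiparp. It was then 0.161 for Cyp1a1 and 0.484 for Cyp1a2.

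With each library left out in turn, the genotype log2 fold change ran from −0.436 to 0.217 for Ahr, −0.112 to 0.111 for Arnt, 0.0600 to 1.06 for Cyp1a1, −0.312 to 0.921 for Cyp1a2 and −0.392 to 0.197 for Tiparp. The extremes of Cyp1a2 came without Hep-Sucnr1 KO replicates 4 and 5. For day it ran from −0.431 to 0.523 for Cyp1a2 and −0.763 to 0.289 for Tiparp. The interaction of Cyp1a2 was 0.00236 with DESeq2's size factors (−0.03 with TMM). Per kilobase of the longest transcript the level of Arnt was 11.8 CPM in place of 6.40. The cause of these changes was not tested. The interaction was not run with DESeq2 or with libraries left out, and day 2 alone holds no contrast of days. No paired analysis was run, because the labels name no pairs of control and KO libraries. Replicate number 3, the only one that the genotypes share, was extracted on day 2 in Sucnr1 fl/fl and on day 1 in Hep-Sucnr1 KO.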
